A study of Homo sapiens with 6 samples.

Results

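The proteasome subunit genes were defined as the genes whose single symbol in the platform annotation begins with PSM, a letter from A to G and a number. On the arrays 38 of 8987 named genes met this rule, through 53 of 14080 probes, and probes of a gene were averaged. All 5 harvests had a measurement for 37 of these genes, out of 8748 genes with one. PSMG3, a chaperone of core assembly, was measured only at 1 h, at a log2 ratio of 0.13. The pattern also took in PSME3IP1, which encodes a protein that binds the activator PSME3 and is not a subunit, and it is described apart from the subunits. Of the 48 symbols sorted by role, 11 had no single-symbol probe and were not analysed here, namely PSMA4, PSMA8, PSMB5, PSMB9, PSMB11, PSMC5, PSMD7, PSMD13, PSME1, PSMF1 and PSMG4.

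The study used GM00156, a human cell line of the Coriell repository, on 6 two-colour arrays. Cells had or had not received emetine, an inhibitor of protein synthesis, at 100 µg/ml, and both cultures were kept for 10 h. Actinomycin D, which stops transcription, was then given at 5 µg/ml to both, and cells were taken at 0, 10 and 30 min and at 1 and 8 h. Each harvest is 1 array of treated against untreated cells, and the sixth array set emetine-treated RNA of the 0 min harvest against itself, with no actinomycin D in its description. The labels give no genotype and no cell type for the line, which is a single line standing for all the results. For the 0 min array they disagree, since its channel names are treated and untreated whereas its description has treated RNA on both sides. They state a division of sample by reference without saying which channel was the reference, so a value is given here only as lying on the positive or the negative side of 0, where 1 unit is a 2-fold ratio. The harvests are not replicates, and no label speaks of separate cultures. The p-values therefore measure the spread of 5 single arrays around a line over time.

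The proteasome degrades proteins that carry ubiquitin chains. Its core particle is a stack of rings in which the α subunits (PSMA) guard the entrance and the β subunits (PSMB) hold the proteolytic sites. A regulatory particle caps the core, with a base that contains a ring of ATPases (PSMC) that unfold substrates and with non-ATPase subunits (PSMD) that bind ubiquitin, remove it or act as a scaffold. Interferon induces alternative β subunits and the PSME1 and PSME2 activator, which alter the peptides made for antigen presentation. Dedicated chaperones, among them PSMG1, PSMG2, PSMD5, PSMD9 and PSMD10, assist assembly and leave the finished particle.

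The 6 arrays differed in the spread of their log ratios, with a robust SD over probes of 0.12 on the self-self array and from 0.44 at 0 min to 0.91 at 10 min on the harvests. The central 99% of genes on the self-self array lay between -0.28 and 0.43, and all 37 members lay inside this range there. Most members were nevertheless slightly negative on that array, 29 of 37 against 47.5% of all genes. Of markers that could hint at the kind of cell, 6 of 7 measured fibroblast genes had a negative mean that passed an adjusted p of 0.05 in limma. The seventh, FN1, passed on the positive side at 0.51, but it was already at 0.49 on the self-self array, above the central range. Of 5 B lymphocyte genes 1 passed, on the positive side, and over all genes 25.3% passed on the negative and 37% on the positive side. Ratios give no level, and the part of these shifts in the results on the members was not tested. In bulk RNA, a different share of cells of a type and a different amount of RNA per cell cannot be told apart.

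Over the harvests members lay on both sides of 0, and so did members of the regulatory particle. The mean log2 ratio over 5 harvests passed an adjusted p of 0.05 in limma on the negative side for 20 of 37 members, where 25.3% of all genes did so. It passed on the positive side for 8 members, against 37% of all genes, and thus on either side for 28 members, against 62.4%. The median of the members' means was -0.33, and that of all genes was 0.14. Among the negative calls were 10 of the 12 constitutive core genes, 7 of the 14 base and lid genes, 2 of 3 assembly factors of the ATPase ring, and the activator PSME3. Those on the positive side were the inducible PSMB8 and PSMB10, the activators PSME2 and PSME4, the chaperone PSMG1, and the regulatory subunits PSMC6, PSMD11 and PSMD12. Without the 30 min array 13 members had a negative call, against 1777 of 8823 genes. Without the 8 h array 4 members had a positive call, against 2642 of 8767 genes. With the self-self array as the level in place of 0, a level that rests on 1 array, 0 members and 1 of 8725 genes passed.

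**Figure D1:**
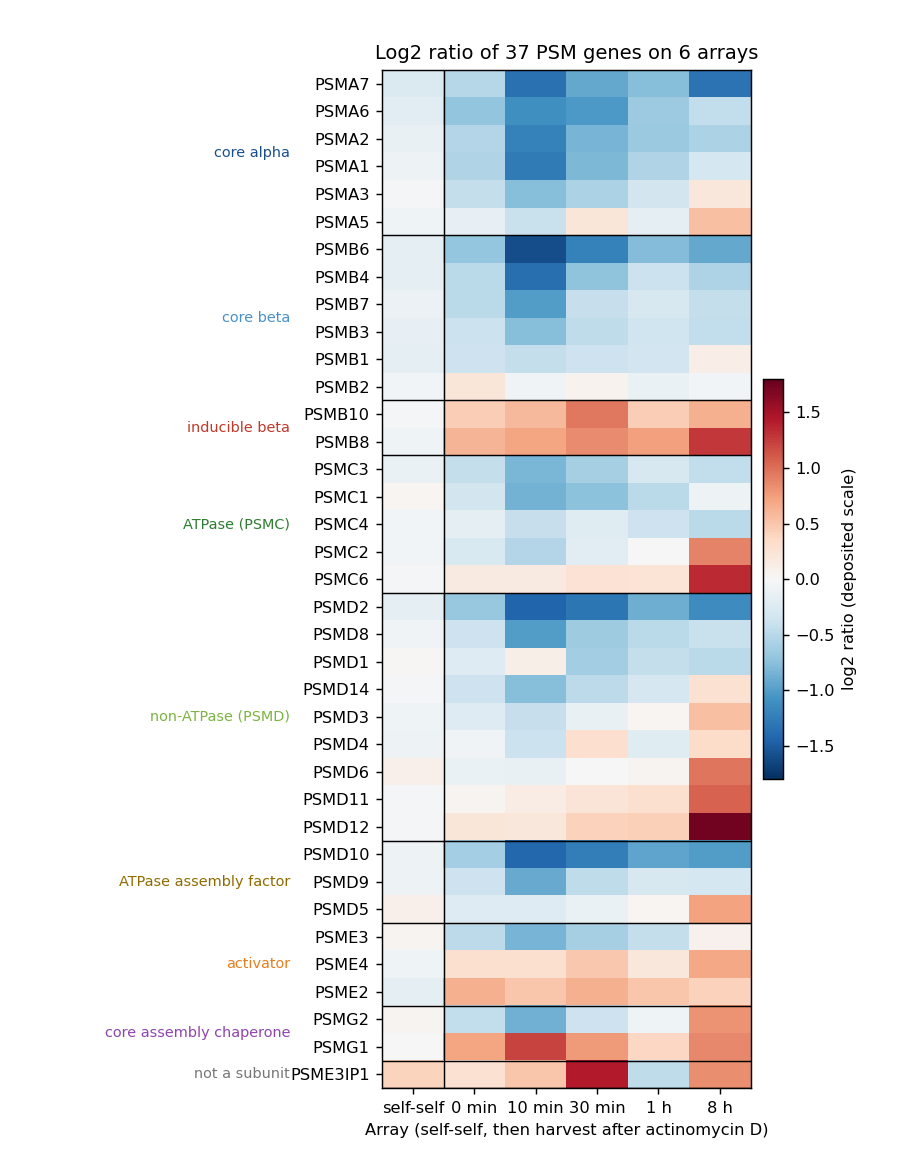
Heat map of the log2 ratio (colour, blue negative, red positive) of 37 genes (rows, by role) on the self-self array and the 5 harvests (columns). The strongest blue runs through PSMA7, PSMB6, PSMD2 and PSMD10, PSMB8 and PSMB10 are red on every harvest, and PSMD12 is reddest at 8 h, at 1.73.

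All but 1 of the α ring genes had a negative mean that passed. The α subunit PSMA7 gave -0.26 on the self-self array, then -0.51, -1.35, -0.92, -0.77 and -1.33 at 0, 10 and 30 min, 1 h and 8 h. It was low on every harvest and as low at 8 h as at 10 min, with a mean of -0.97 (SE 0.14, adjusted p = 0.000862). PSMA6 gave -0.20 on the self-self array and then -0.71, -1.10, -1.03, -0.66 and -0.45, a mean of -0.79 (SE 0.12, adjusted p = 0.00113). Its lowest harvests were 10 and 30 min. PSMA2, with a pair of probes, and PSMA1 had means of -0.76 and -0.70. Both were lowest at 10 min, at -1.22 and -1.28. PSMA3 crossed 0 between 1 h and 8 h: it gave -0.43, -0.76, -0.57, -0.33 and 0.21, and its probes both lay above 0 at 8 h. Its mean was -0.38 (SE 0.12, adjusted p = 0.0245), and it did not pass without the 10 min array (adjusted p = 0.105) or the 30 min array (0.107). PSMA5, the remaining α gene, gave -0.08 on the self-self array and -0.15, -0.40, 0.22, -0.16 and 0.53 on the harvests. It was on the negative side of 0 at 3 harvests and on the positive side at 2, and its mean of 0.0098 did not pass (SE 0.12, adjusted p = 0.95). The median of the 6 α genes was -0.73, and it became -0.85 when each array was centred on its median.

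Of the constitutive β genes, those for 2 of the 3 catalytic subunits could be read. PSMB6, the caspase-like site, gave -0.18 on the self-self array and -0.70, -1.60, -1.22, -0.77 and -0.92 on the harvests. Its value at 10 min was the lowest of any member on any array, and its mean was -1.04 (SE 0.15, adjusted p = 0.000946). PSMB7, the trypsin-like site, gave -0.11 and then -0.49, -1.0, -0.42, -0.29 and -0.43. It was thus lowest at 10 min and nearest to 0 at 1 h, and its mean was -0.53 (SE 0.13, adjusted p = 0.0088). PSMB4, a structural β subunit, gave -0.16 on the self-self array and -0.49, -1.36, -0.72, -0.39 and -0.56 on the harvests, with a mean of -0.70 (SE 0.15, adjusted p = 0.00537). PSMB3 had a mean of -0.48 and a narrower course, from -0.76 at 10 min to -0.36 at 1 h. PSMB1 lay between -0.43 and -0.35 at the first 4 harvests and at 0.11 at 8 h. Its mean of -0.28 was close to the threshold (adjusted p = 0.0495) and missed it without the 0 min, 10 min, 30 min or 1 h array (adjusted p from 0.0806 to 0.169). PSMB2 gave -0.05 on the self-self array and 0.22, -0.07, 0.07, -0.12 and -0.05 on the harvests. It stayed inside the self-self range at every harvest, and its mean of 0.0091 did not pass (SE 0.11, adjusted p = 0.95). The median of the 6 β genes was -0.50, and -0.62 after centring.

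The constitutive core genes were also negative on the self-self array, 12 of 12, from -0.26 to -0.04. After subtraction of each gene's self-self value the median of their means was -0.48, and the same subtraction over all genes gave a median of 0.10. All 10 that passed remained below 0. That sign was set beforehand, since each had a negative mean larger in size than its self-self value. With the self-self array as the level in limma, 0 members passed.

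**Figure D2:**
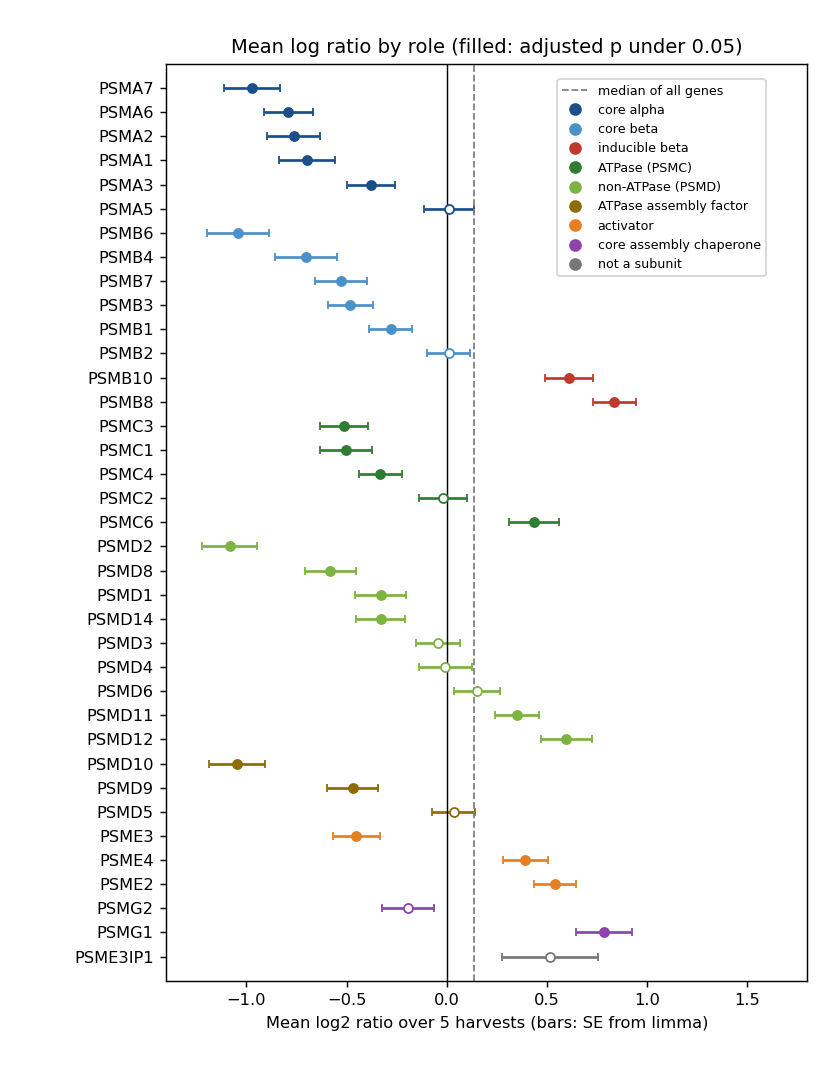
Mean log2 ratio over 5 harvests (x axis) of each gene (y axis), with bars for the limma SE, filled points for an adjusted p under 0.05, colour for role and a dashed line at the median of all genes, 0.14. The points range from PSMD2 at -1.08 to PSMB8 at 0.84, and the α and constitutive β genes lie at or left of 0 apart from PSMA5 and PSMB2, which are just right of it.

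The inducible β genes were on the other side of 0. PSMB8, which replaces the chymotrypsin-like subunit, gave -0.08 on the self-self array and 0.61, 0.72, 0.85, 0.74 and 1.27 on the harvests. PSMB10, which replaces PSMB7, gave -0.04 and then 0.44, 0.58, 0.95, 0.44 and 0.64. Both lay above the self-self range at all 5 harvests, where 12.2% of all genes did, and they were the only members to do so. Their means were 0.84 (SE 0.11, adjusted p = 0.000562) and 0.61 (SE 0.12, adjusted p = 0.00338). A second PSMB8 probe was measured only at 30 min and 8 h, at 0.34 and 0.90, and was left out of the average. PSMB10 at 0 min and at 1 h stood close to the upper bound of 0.43.

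The activators lay on both sides of 0. PSME2, an interferon-inducible subunit of the PA28 activator, gave -0.17 on the self-self array and 0.64, 0.50, 0.64, 0.50 and 0.41 on the harvests. It was highest at 0 and 30 min and lowest at 8 h, and its mean was 0.54 (SE 0.10, adjusted p = 0.00297). PSME4, the large nuclear activator PA200, gave -0.08 and then 0.29, 0.29, 0.49, 0.21 and 0.69. Its mean of 0.39 passed (SE 0.11, adjusted p = 0.0155), but not without the 30 min array (0.0676) or the 8 h array (0.0751), nor with arrays centred (0.0539). PSME3, the nuclear PA28 activator that interferon does not induce, gave 0.05 on the self-self array and -0.47, -0.84, -0.60, -0.42 and 0.08 on the harvests. It was negative until 1 h and near 0 at 8 h, with a mean of -0.45 (SE 0.12, adjusted p = 0.0120), and missed the threshold without the 10 min array (0.0530) or the 30 min array (0.0561). Its probes had means of -0.65 and -0.25, of which only the first passed.

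In RefSeq promoter windows of 300 bases, 250 before and 50 after the start, a search on both strands for the core of the interferon-stimulated response element, read as GAAA, any 2 letters and GAAA again, found it in 3.57% of 35116 windows and 4.38% of genes with a window. Of the 32 members with a window, 4 held it: PSMB8, PSMB10 and PSME2, whose means were positive, and PSMB4, whose mean was negative. The first 3 shared the same 10 letters, GAAAGCGAAA, which in PSMB8 read TTTCGCTTTC on the strand of the gene and spanned a start site, from -4 to 5. In PSMB10 they lay from -21 to -12, in PSME2 from -28 to -19, and the PSMB4 match lay from -68 to -59, with the start counted as 0. The 250 bases before the start are shown for the 3 genes with a match there, from RefSeq on GRCh38.p14, 5′ to 3′ on the gene's strand with the match in capitals. They are PSMB10 at chr16:67936851-67937100 on the minus strand, PSME2 at chr14:24146611-24146860 on the minus strand and PSMB4 at chr1:151399323-151399572 on the plus strand.
PSMB10: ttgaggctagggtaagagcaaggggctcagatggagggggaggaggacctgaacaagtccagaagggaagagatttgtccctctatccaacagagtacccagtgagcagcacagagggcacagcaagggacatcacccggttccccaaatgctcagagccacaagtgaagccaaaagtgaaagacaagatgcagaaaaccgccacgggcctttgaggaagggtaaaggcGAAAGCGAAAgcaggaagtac
PSME2: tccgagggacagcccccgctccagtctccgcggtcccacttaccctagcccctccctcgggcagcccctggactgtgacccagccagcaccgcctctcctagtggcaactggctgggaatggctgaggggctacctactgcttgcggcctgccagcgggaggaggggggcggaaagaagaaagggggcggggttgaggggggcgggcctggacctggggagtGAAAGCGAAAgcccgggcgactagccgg
PSMB4: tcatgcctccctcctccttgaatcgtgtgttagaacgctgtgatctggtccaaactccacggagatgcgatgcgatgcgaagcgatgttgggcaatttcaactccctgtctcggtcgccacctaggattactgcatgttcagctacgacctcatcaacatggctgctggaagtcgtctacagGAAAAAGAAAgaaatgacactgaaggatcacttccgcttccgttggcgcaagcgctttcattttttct
The match is a description of these letters and does not show that a factor binds there.

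The ATPases of the base were spread over both sides. PSMC3, read by a pair of probes, gave -0.12 on the self-self array and -0.42, -0.82, -0.60, -0.29 and -0.44 on the harvests. PSMC1 gave 0.03 and then -0.33, -0.86, -0.74, -0.48 and -0.09. Both were lowest at 10 min, and PSMC1 was near 0 at 8 h. Their means were -0.51 (SE 0.12, adjusted p = 0.00667) and -0.50 (SE 0.13, adjusted p = 0.0108), and PSMC1 missed the threshold without the 30 min array (0.0511). PSMC6 gave -0.02 on the self-self array and 0.16, 0.17, 0.26, 0.25 and 1.35 on the harvests. Its mean of 0.44 (SE 0.12, adjusted p = 0.0156) rested on the 8 h array, without which it was 0.21 and did not pass (adjusted p = 0.192). PSMC2 gave -0.28, -0.52 and -0.18 at the first 3 harvests, then 0.00 at 1 h and 0.90 at 8 h, and its mean of -0.02 did not pass (adjusted p = 0.91). The median of the 5 ATPase genes was -0.33, and -0.45 after centring.

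PSMC4 is the member whose probes disagreed most over time. Its probes share 1 accession, and their average gave -0.05 on the self-self array and -0.17, -0.42, -0.22, -0.37 and -0.48 on the harvests, a mean of -0.33 (SE 0.11, adjusted p = 0.0260). One probe gave -0.38, -0.70, -0.26, -0.15 and -0.03 over the harvests, so that it was lowest at 10 min and near 0 at 8 h. The other gave 0.05, -0.14, -0.18, -0.58 and -0.94, so that it was near 0 at 0 min and lowest at 8 h. Tested singly, the mean of 1 probe passed and that of the other did not. The call of the average was lost when any 1 of the arrays from 10 min to 8 h was left out (adjusted p from 0.0566 to 0.0914).

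The non-ATPase subunits held both the lowest mean and the steepest course of all members. PSMD2, a scaffold of the base to which ubiquitin carriers bind, was read by 9 probes of 1 accession, and 55 genes on the arrays had at least as many. Its average gave -0.18 on the self-self array and -0.69, -1.42, -1.30, -0.88 and -1.13 on the harvests. It was below the self-self range at all 5 harvests, as were 13 members in all, against 13.1% of all genes. Its mean was -1.08 (SE 0.14, adjusted p = 0.000569), and the probe means lay between -1.18 and -0.84. All 9 probes passed on the negative side when tested singly. The SD between these probes was 0.09 on the self-self array, 0.32 at 0 min and between 0.06 and 0.19 at the later harvests. At 0 min 1 probe stood at 0.15, and the other 8 lay between -0.88 and -0.66. Most members, 30 of 37, had 1 probe and no such check.

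**Figure D3:**
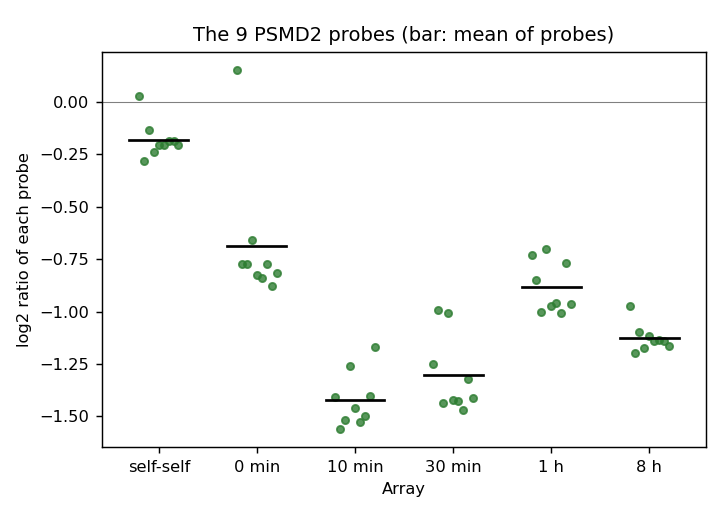
Log2 ratio (y axis) of each of the 9 PSMD2 probes on the self-self array and the 5 harvests (x axis). The probes lie close together except for 1 at 0.15 at 0 min, and their median is lowest at 10 min, at -1.46.

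Other PSMD subunits formed a negative and a late positive set. PSMD8, a lid subunit, gave -0.06 on the self-self array and -0.37, -1.0, -0.64, -0.49 and -0.40 on the harvests, with a mean of -0.58 (SE 0.13, adjusted p = 0.00529). PSMD1, the second scaffold of the base, was the only negative member at a positive value at 10 min (0.10), and its mean of -0.33 lay at the threshold (adjusted p = 0.0499). It missed it without the 0 min, 30 min, 1 h or 8 h array (adjusted p from 0.0770 to 0.186). PSMD14, the deubiquitinase of the lid, gave -0.02 on the self-self array and -0.37, -0.77, -0.47, -0.31 and 0.27 on the harvests, so that it was negative until 1 h and positive at 8 h. Its probes, at 0.05 and 0.50 at 8 h, had means of -0.38 and -0.28, of which 1 passed. Its mean of -0.33 (SE 0.12, adjusted p = 0.0438) did not pass without the 10 min, 30 min or 1 h array (adjusted p from 0.0687 to 0.181).

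The lid subunit PSMD12 gave -0.03 on the self-self array and 0.22, 0.20, 0.41, 0.43 and 1.73 on the harvests. Its 8 h value was the highest of any member on any array and stood far above its other harvests. The mean was 0.60 (SE 0.13, adjusted p = 0.00456), and 0.31 without the 8 h array (adjusted p = 0.0701). PSMD11, also of the lid, gave -0.04 and then 0.05, 0.13, 0.23, 0.28 and 1.07. It lay above the self-self range only at 8 h. Its mean of 0.35 (SE 0.11, adjusted p = 0.0225) missed the threshold without the 30 min array (0.0600), without the 8 h array (0.268) and with arrays centred (0.0917). A further 3 PSMD subunits, the lid members PSMD3 and PSMD6 and the ubiquitin receptor PSMD4, had means between -0.04 and 0.15 that did not pass. PSMD6 was within 0.15 of 0 until 1 h and at 0.97 at 8 h. The median of the 9 non-ATPase genes was -0.04, which changed sign without the 0 min array (0.0048) or the 10 min array (0.05).

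The genes PSMD5, PSMD9 and PSMD10 encode chaperones of the ATPase ring. The product of PSMD10 is also called gankyrin, and the gene gave -0.09 on the self-self array and -0.62, -1.41, -1.25, -0.95 and -1.01 on the harvests. These values lay close to those of PSMD2 at each harvest, and the mean was -1.05 (SE 0.14, adjusted p = 0.000651). PSMD9 gave -0.10 and then -0.38, -0.91, -0.46, -0.29 and -0.32, with a mean of -0.47 (SE 0.13, adjusted p = 0.0123). PSMD5 gave 0.08 on the self-self array and -0.23, -0.24, -0.11, 0.03 and 0.72 on the harvests. It was high only at 8 h, and its mean of 0.04 did not pass (SE 0.11, adjusted p = 0.79).

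PSMG1 and PSMG2, which work as a dimer in building the α ring, lay on opposite sides at 10 min. PSMG1 gave 0.01 on the self-self array and 0.71, 1.22, 0.77, 0.38 and 0.87 on the harvests. It was highest at 10 min, the harvest at which most members were lowest, and its mean was 0.79 (SE 0.14, adjusted p = 0.00206). PSMG2 gave 0.04 on the self-self array and -0.45, -0.87, -0.38, -0.07 and 0.81 on the harvests. It ran from the negative to the positive side, and its mean of -0.19 did not pass (SE 0.13, adjusted p = 0.23). Without the 8 h array it was -0.44 and passed (adjusted p = 0.0413), as it did with arrays scaled to equal spread (mean -0.35, adjusted p = 0.00661), whereas without the 10 min array it was -0.02 (adjusted p = 0.895). PSME3IP1 gave 0.40 on the self-self array and 0.27, 0.51, 1.43, -0.45 and 0.83 on the harvests, and its mean of 0.52 did not pass (SE 0.24, adjusted p = 0.0915). Without the 1 h array, the only negative one, it was 0.76 and passed (adjusted p = 0.00417), and without the 30 min array it was 0.29 (adjusted p = 0.282).

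The order of the harvests within a gene showed a pattern that several roles shared, but not all. The lowest harvest was 10 min for 26 of 37 members, against 27.7% of all genes, and the highest was 8 h for 19 members, against 33.4% of all genes. The former were 11 of 12 constitutive core genes and 10 of 14 base and lid genes, but 0 of 2 inducible β genes and 1 of 3 activators, among others. Highest at 8 h were 1 of 6 constitutive β genes and 6 of 9 non-ATPase genes. Of the 20 members with a negative call, 18 were lowest at 10 min, as were 56.4% of all genes with such a call, and of the 8 with a positive call 5 were highest at 8 h, against 45.5%. The value at 8 h was above that at 10 min in 33 members, against 56.6% of all genes; the exceptions were PSMC4, PSMD1, PSME2 and PSMG1. The 10 min array had the widest spread, and with arrays centred and scaled to equal spread, an alternative chosen after seeing the data, 10 min was lowest in 13 members (20.2% of all genes). On that scale 8 h was highest in 25 members (28% of all genes) and stood above 10 min in 31 (51.5% of all genes). On the deposited scale the value at 8 h exceeded that at 10 min by more than 1 log2 unit in 6 members and in 10.4% of all genes. At 0 min, 19 members lay below the self-self range and 4 above it, against 21.4% and 20.3% of all genes. At 10 min these counts were 24 and 5, against 33.7% and 35.9%, and at 30 min 20 and 6, against 29.8% and 35.9%. At 1 h they were 21 and 3, against 26.7% and 21.6%. At 8 h they were 15 and 14, against 28.9% and 36.6%, so that the members were almost evenly divided only there. Beyond the range on both sides at different harvests lay 5 members, against 7.3% of all genes. All 5 harvests were negative in 15 members, against 25.4% of all genes, and positive in 8, against 37.8%.

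**Figure D4:**
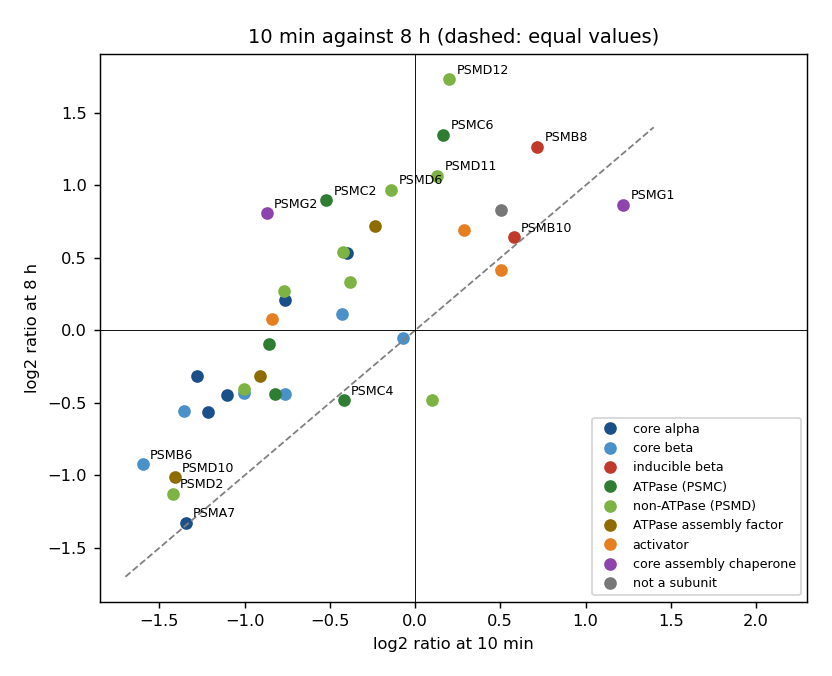
Log2 ratio at 8 h (y axis) against that at 10 min (x axis) for 37 genes, coloured by role, with a dashed line of equal values. Most points, 33 of 37, lie above the line, with PSMD12 highest at 8 h (1.73) and PSMB6 farthest left at 10 min (-1.60).

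Core and regulatory genes differed in the medians of these values, which no test compared. From 0 min to 8 h the median change was 0.01 in the 12 constitutive core genes, 0.52 in the 14 base and lid genes and 0.06 in all genes. From 10 min to 8 h the medians lay closer, at 0.65, 0.85 and 0.09. The 0 min and 8 h arrays differed in spread, with a robust SD of 0.44 and 0.87, and the changes were not scaled for it. With arrays scaled to equal spread, 8 h was the highest harvest in 9 of the 12 core genes and 10 of the 14 base and lid genes (28% of all genes). On the deposited scale it was highest in 5 and 9 of them (33.4% of all genes). The slope over the harvests was above 0 in 29 members, against 52.4% of all genes. In limma, 0 of 37 slopes and 0.0114% of all genes, which is 1 gene, passed the adjusted threshold, and robust moderation also gave 0 members. At an unadjusted p under 0.05, 10 members had a positive slope, against 11.2% of all genes, and 0 had a negative one, against 3.72%. The steepest was PSMD12 (slope 0.28 per unit of log2 time, SE 0.07, adjusted p = 0.117), followed by PSMG2 (0.27) and PSMC2 (0.24). Without the 1 h array the PSMD12 slope passed (adjusted p = 0.0301), when 522 genes did, and without the 8 h array it was 0.09 (adjusted p = 0.9997).

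**Figure D5:**
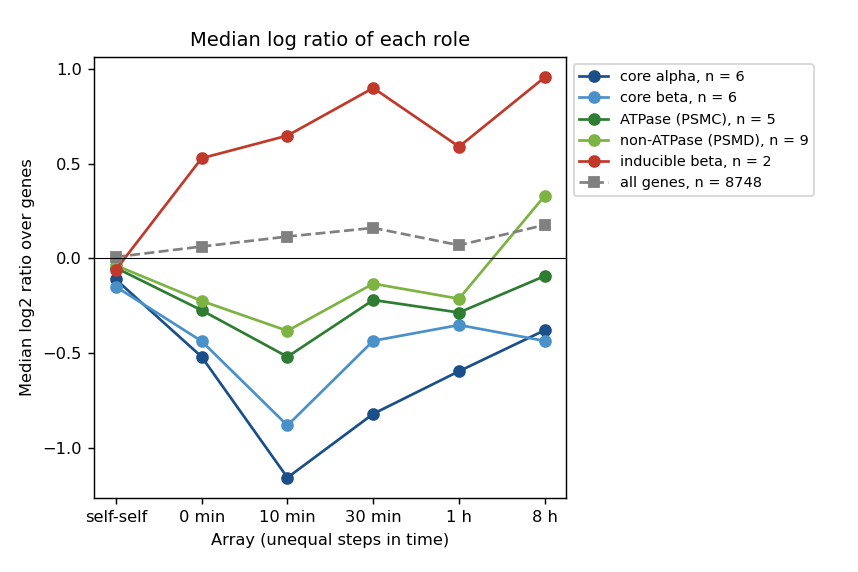
Median log2 ratio over the genes of each role (y axis) on the self-self array and the 5 harvests (x axis, unequal steps in time), with all 8748 genes as a dashed line. The α and β medians are lowest at 10 min, at -1.16 and -0.88, the non-ATPase median goes from -0.38 at 10 min to 0.33 at 8 h, and the inducible β median stays above 0.5 on every harvest.

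Of 35 other symbols of the ubiquitin-proteasome system, which also count older names of SEM1, ECPAS and UFD1, 19 were measured. The negative side held 6 that passed and the positive side 4, against 25.3% and 37% of all genes, with a median of -0.06. NFE2L1, the transcription factor that raises proteasome genes when proteasome activity is low, gave -0.15 on the self-self array and -0.39, -1.66, -1.27, -1.04 and -1.75 on the harvests. Its mean was -1.22 (SE 0.17, adjusted p = 0.000736), lower than that of any PSM gene. ADRM1, a ubiquitin receptor of the base, gave -0.11 and then -0.29, -1.22, -1.13, -0.76 and -1.08, a mean of -0.90 (SE 0.15, adjusted p = 0.00158). SEM1, a small lid subunit, gave -0.25 and then -0.53, -1.08, -0.73, -0.39 and -0.99, a mean of -0.74 (SE 0.14, adjusted p = 0.00234). All 3 were negative on every harvest, and ADRM1 and SEM1 were lowest at 10 min. On the positive side ZFAND5, a zinc-finger protein that binds the proteasome, gave 0.03 on the self-self array and 1.70, 2.39, 2.28, 1.01 and 3.70 on the harvests, a mean of 2.21 (SE 0.27, adjusted p = 0.000517). TXNL1, a thioredoxin bound to the regulatory particle, gave -0.06 and then 0.33, 0.63, 0.86, 0.74 and 2.65, a mean of 1.04 (SE 0.14, adjusted p = 0.000706). UBQLN2, a carrier of ubiquitinated proteins, gave -0.08 and then 0.24, 0.21, 0.27, 0.19 and 1.55, a mean of 0.49 (SE 0.14, adjusted p = 0.0159). These 3 were positive on every harvest and highest at 8 h. Without the 8 h array the mean of TXNL1 was 0.64 and passed (adjusted p = 0.00715), and that of UBQLN2 was 0.23 and did not (0.159).

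Genes that act with the inducible subunits in antigen presentation were measured for 6 of 10 symbols, of which 3 had a positive mean that passed and 0 a negative one, against 37% and 25.3% of all genes. They were NLRC5, the transactivator of MHC class I genes, TAPBP, which loads peptide, and B2M, the MHC class I light chain, with means of 0.51, 0.32 and 0.30. TAP2, ERAP1 and HLA-C had means of 0.15, -0.04 and -0.15 that did not pass, and HLA-C was negative on every harvest. The median of the 6 was 0.23. NLRC5 was at 1.97 at 8 h and at no more than 0.24 before, whereas TAPBP and B2M were nearest to 0 at 8 h. Without the 8 h array the mean of NLRC5 was 0.15 and did not pass (adjusted p = 0.372). TAPBP and B2M missed the threshold when any 1 of the other harvests was left out (adjusted p from 0.0539 to 0.147).

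The windows were also searched for TGACNNNGC, the core of the antioxidant response element, through which NFE2L1 is known to act on proteasome genes. It was found on either strand in 13.3% of the same windows and 16.1% of genes with a window. Of the 32 members 11 held it, namely 4 of 16 on the negative side, 4 of 8 on the positive side and 3 of 8 that did not pass. PSMB3 and PSMG1 are shown because they lie on opposite sides and both hold it before the start, from -104 to -96 and from -183 to -175. They are at chr17:38752491-38752740 on the plus strand and at chr21:39183452-39183701 on the minus strand, again from RefSeq on GRCh38.p14 with the match in capitals.
PSMB3: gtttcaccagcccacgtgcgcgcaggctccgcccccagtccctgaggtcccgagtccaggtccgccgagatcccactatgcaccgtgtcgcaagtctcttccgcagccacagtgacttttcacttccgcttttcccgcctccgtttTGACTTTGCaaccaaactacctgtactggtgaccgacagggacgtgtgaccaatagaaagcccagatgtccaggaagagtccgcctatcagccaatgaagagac
PSMG1: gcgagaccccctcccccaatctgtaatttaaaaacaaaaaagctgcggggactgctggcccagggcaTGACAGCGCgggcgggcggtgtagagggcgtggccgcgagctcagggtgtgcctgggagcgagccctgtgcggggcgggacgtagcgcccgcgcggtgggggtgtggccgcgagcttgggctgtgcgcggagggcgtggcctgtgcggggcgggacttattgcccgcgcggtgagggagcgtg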

How the data were processed

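Two-colour arrays measured RNA of GM00156 cells, with 1 array per harvest and a self-self array. Per the labels, the authors subtracted background, averaged spot intensities, divided sample by reference, normalised within each slide on housekeeping genes and discarded ratios of quality below 0.5. The deposited values are log2 ratios, with the base settled from the values; tools and scanner are not given in the sources used here. Zero is thus set on each slide by housekeeping genes. The scale carries no depth, and the number of arrays limits the precision.

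Each array repeats 1 value at 333 to 534 probes, which was treated as not measured after seeing the data. Probes with 1 symbol in the platform annotation (11304, of which 11282 matched the gene table; 446 have several symbols and 2330 none) were averaged per gene. The 4 probes with several symbols that include a PSM gene were left out. Over 5 harvests limma 3.58.1 (R 4.3.3) fitted to each of 8748 genes its mean and a linear term in log2(1 + min / 10), centred, which leaves 3 residual degrees of freedom. Variances were moderated by empirical Bayes, and two-sided p-values were adjusted by Benjamini-Hochberg over all genes. Calls use an adjusted p of 0.05. The step was tested on simulated data with independent noise for each gene and array. Those data held no shift shared by an array and no difference in spread between arrays.

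The members, lists and tests were chosen with earlier results of these data known. Lists are described by counts and medians. Named with values on every array were, per role, the 2 members with the largest mean in size and the largest of opposite sign, the catalytic subunits, members whose probes split over the threshold, and 3 other ubiquitin-proteasome genes per side; others were chosen after their values were seen. Alternatives were centring or scaling arrays, the probe median, 1 row per probe, keeping the repeated value, robust moderation, a mean without slope, the slope on harvest rank, the self-self array as the level, other self-self ranges, and leaving out each harvest.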

Additional observations from a re-analysis of the deposited data

Results flagged for a closer look

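PSMA5, PSMC2, PSMD3, PSMG2 and PSME3IP1 lay beyond the self-self range on opposite sides at different harvests, which 7.3% of all genes did; these differences between single arrays were not tested. The lowest and highest values were -0.40 at 10 min and 0.53 at 8 h for PSMA5, -0.52 at 10 min and 0.90 at 8 h for PSMC2, and -0.42 at 10 min and 0.54 at 8 h for PSMD3. They were -0.87 at 10 min and 0.81 at 8 h for PSMG2, and -0.45 at 1 h and 1.43 at 30 min for PSME3IP1.

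Outside the averages, a probe annotated to PSMC2 and 4 other genes had a mean of 0.93 over the harvests, and the second PSMB8 probe, not measured on every array, was at 0.90 at 8 h.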

How the results depend on the processing

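Over 11 alternatives other than the self-self level, 13 of 20 negative and 4 of 8 positive calls of members were kept in every one. The latter were PSMB8, PSMB10, PSME2 and PSMG1. The share of calls kept among all genes was not counted. With a mean and no slope in the limma model, members had 16 negative and 6 positive calls, against 2084 and 2971 of 8748 genes. PSMA3, PSMB1, PSMC6, PSMD1, PSMD11 and PSMD14 did not pass there, and PSMD12 did so narrowly (adjusted p = 0.0498). With the self-self array as the level, 0 members and 0 of the other ubiquitin-proteasome genes passed on either side. Leaving out each harvest in turn gave 13 (without 30 min) to 19 negative and 4 (without 8 h) to 9 positive members, and 0 to 1 slopes (PSMD12). Among all genes, 8761 to 8823 in number, these settings gave 1777 to 2199 negative and 2466 to 3237 positive calls. They gave 4 to 7 negative and 3 to 4 positive other ubiquitin-proteasome genes. Class medians then ran from -0.80 to -0.60 (α), -0.55 to -0.41 (β), -0.37 to -0.29 (ATPase) and -0.19 to 0.05 (non-ATPase, 0.0048 without 0 min and 0.052 without 10 min). The 13 members below the self-self range on every harvest became 0 past 1 log2 unit. The 2 above it became 1 on centred arrays or with the repeated value kept. They became 4 with the self-self range narrowed to its central 95%, and 0 past 1 log2 unit. Shares of all genes, 13.1% below and 12.2% above in the main setting, were not counted for these alternatives. Scaling gave 0 on either side, but it stretched the self-self array to the spread of the harvests, and the range with it. The counts on scaled arrays therefore cannot tell whether members stay beyond the noise of the self-self array. Centring moved the median of all genes from 0.14 to 0.02, and the share of positive among passing genes from 59.4% to 48.6%.

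Means that did not pass and changed sign were, with arrays centred and scaled, PSMA5 (-0.11, -0.14), PSMB2 (-0.11, -0.083) and PSMD5 (-0.080, -0.12). With the self-self level they were PSMC2 (0.034), PSMD3 (0.030), PSMD4 (0.084) and PSMD5 (-0.049). Over the settings that leave out 1 harvest, including those that kept the sign, PSMA5 ranged from -0.12 to 0.11, PSMB2 from -0.044 to 0.042, PSMC2 from -0.25 to 0.11, PSMD3 from -0.19 to 0.052, PSMD4 from -0.091 to 0.087, PSMD5 from -0.14 to 0.10 and PSMD6 from -0.051 to 0.23. Where no value above shows a cause, the cause was not tested. No paired analysis was possible because each harvest has 1 array.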
